A study of Mus musculus with 6 samples.

Results

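The Th1 lineage genes described here are 9 genes of CD4+ T cells that produce the cytokine IFN-γ, covering the cytokine itself, the control of its production and the homing of the cells. They comprise the cytokine gene *Ifng*, the IL-12 receptor genes *Il12rb1* and *Il12rb2*, the IL-18 receptor genes *Il18r1* and *Il18rap*, the transcription factor genes *Tbx21*, *Runx3* and *Hlx*, and the chemokine receptor gene *Cxcr3*. The members were listed by gene symbol for their known roles in Th1 cells, and all 9 were found among the 35602 genes of a table of counts and among the 34714 genes of a pair of tables of normalized values.

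Th1 cells are helper T cells that defend against intracellular microbes, mainly by releasing IFN-γ. IL-12 from antigen-presenting cells activates the kinases Jak2 and Tyk2 and the factor Stat4 in the T cell, and the factor T-bet, encoded by *Tbx21*, opens the IFN-γ gene and raises the receptors for IL-12 and IL-18. IL-18 acts through an adaptor cascade and, together with IL-12, through p38 MAP kinases, the family to which the product of *Mapk13* belongs.

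CD4+ T cells from mouse spleen were activated with anti-CD3/CD28 antibodies and exposed to MAPK13-IN-1, a small-molecule inhibitor of the kinase encoded by *Mapk13*, or to its solvent DMSO. RNA was sequenced from 3 libraries of each group, to ask which genes differ when the kinase is inhibited. The dose was 17.1 µM in a stimulation of 72 h, and the labels of the replicate 1 pair give no dose. By the design text the inhibitor was present throughout, whereas the labels of replicates 2 and 3 place the addition of inhibitor or DMSO after day 1. Replicates 2 and 3 of both groups are labelled wild-type (WT). The labels of the replicate 1 pair name no genotype, and the strain, age and sex of the mice behind these libraries are not given in the sources used here.

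The libraries came in 2 batches that differed in library chemistry. Replicates 2 and 3 of each group were purified with poly-T beads and were deposited as read counts, with totals of 26874805 and 28487403 counts for DMSO and 33854760 and 32617702 counts for MAPK13-IN-1. Values from these 4 libraries are given as CPM (counts scaled to library size, with the TMM method between libraries). A quasi-likelihood test in edgeR set MAPK13-IN-1 against DMSO, and a gene was called at a Benjamini-Hochberg adjusted p under 0.05. For the replicate 1 pair a stranded kit was used, and its deposited values are taken to be FPKM (fragments per length of gene and size of library), which is inferred from the numbers themselves. Its depth is unknown and each group has 1 library there, so this pair entered no test and carries no error. No source states that the libraries came from separate mice or cultures, and p-values therefore measure only the spread between libraries.

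The isolated cells carried CD4 T cell transcripts in every library. Summed over 7 CD4 T cell markers, the level was 1424 and 1436 CPM (scaled to library totals alone, as are the other marker sums) in the DMSO libraries and 945 and 1044 CPM in the MAPK13-IN-1 libraries. Of these 7 genes 6 were called lower and 0 higher, among them *Cd3e*, a chain of the T cell receptor complex (log2 fold change −1.37, SE 0.11). Over all 16269 genes tested, 32.3% were called lower and 31.5% higher, and all marker calls are to be read beside these shares. *Cd5*, also called lower, was the most abundant with DMSO (mean 432 CPM, TMM-scaled). *Cd4* was not called, and was the most abundant with MAPK13-IN-1 (275 CPM, against 177 CPM for *Cd5*). B cell transcripts were also present. The 7 B cell markers in the table summed to 1007 and 978 CPM with DMSO and to 1270 and 1283 CPM with MAPK13-IN-1, with *Pax5* the most abundant over the 4 libraries together, 5 genes called higher and 1 lower. The same 7 markers summed to 46.8 FPKM (DMSO) and 34.9 FPKM (MAPK13-IN-1) in the replicate 1 pair, beside 1037 and 985 FPKM for the CD4 T cell markers.

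Natural killer, CD8 T and gamma-delta T cells, which can also express Th1 lineage genes, were represented sparsely by their markers. B cell markers were not sparse. Their sums lay above those of the CD4 T cell markers with MAPK13-IN-1 and below them with DMSO. How far B cells or other cells contribute to the levels of the Th1 lineage genes was not tested. The natural killer cell markers *Ncr1* and *Klre1* had 0 counts in both DMSO libraries and *Klra8* had 0 counts in all 4 libraries. A count of 0 allows up to 3 counts by counting error alone, which is worth 0.112 and 0.105 CPM in the DMSO libraries. The 7 natural killer markers summed to 12.1 and 9.90 CPM with DMSO and to 6.59 and 6.10 CPM with MAPK13-IN-1, with 1 gene called lower and 1 higher. The lower gene was *Gzma*, a protease gene that T cells also express and the most abundant over the 4 libraries together (269, 226, 66 and 69 counts), and the higher gene was *Klrk1* (49, 46, 121 and 98 counts). The CD8 T cell markers *Cd8a* and *Cd8b1* summed to 11.2 and 10.4 CPM with DMSO and to 5.76 and 8.16 CPM with MAPK13-IN-1, with *Cd8b1* the more abundant. Both genes were called lower (log2 fold changes −1.41, SE 0.30, and −0.60, SE 0.17). Their sum rose from 3.49 FPKM (DMSO) to 8.39 FPKM (MAPK13-IN-1) in the replicate 1 pair. Of the 3 gamma-delta T cell markers only *Sox13* was found by its symbol, at sums of 2.60 and 1.65 CPM with DMSO and 3.75 and 3.99 CPM with MAPK13-IN-1.

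Markers of myeloid and red cells were low with DMSO and higher with the inhibitor. Sums over 6 macrophage markers, led by *Cd68* and with *C1qa* at 0 counts in both DMSO libraries, were 11.6 and 10.5 CPM with DMSO and 40.2 and 32.9 CPM with MAPK13-IN-1, and 2.96 and 9.40 FPKM (DMSO, then MAPK13-IN-1) in the replicate 1 pair. Sums over 5 dendritic cell markers, led by *Zbtb46* and with *Siglech* at 0 counts in both DMSO libraries, were 18.4 and 18.6 CPM with DMSO and 61.7 and 51.1 CPM with MAPK13-IN-1, and 3.36 and 14.6 FPKM in the replicate 1 pair. Sums over 4 erythroid markers, led by *Hbb-bs*, were 3.80 and 3.19 CPM with DMSO and 56.6 and 40.7 CPM with MAPK13-IN-1, and the 4 neutrophil markers stayed at or under 0.307 CPM in every library. The part that these shifts in marker levels play in the differences below was not tested, and fewer cells of a type and less RNA per cell cannot be told apart in these bulk libraries.

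All 9 Th1 lineage genes passed the filter on low counts, and 7 of them were called, 5 lower and 2 higher with MAPK13-IN-1. Among the 16269 genes tested, 63.8% were called, 32.3% lower and 31.5% higher, so a call by itself does not set these genes apart. The libraries of the groups did not overlap for 8 of the 9 genes, against 83% of all genes tested. The lower genes were *Ifng*, *Il12rb1*, *Il12rb2*, *Il18r1* and *Hlx*, the higher genes were *Il18rap* and *Runx3*, and *Tbx21* and *Cxcr3* were not called. The median log2 fold change was −0.70 over the 9 genes and 0.01 over all genes tested. In the replicate 1 pair the picture was different, with 8 of 9 genes higher with MAPK13-IN-1 and 4 of them at least 2-fold higher. Sums of macrophage and dendritic cell markers were higher with MAPK13-IN-1 in both batches. The CD8 T cell sum was higher and the B cell sum lower in that pair only, and the part of these shifts was not tested. Of the 11071 genes with a mean of at least 1 FPKM in that pair, 55.6% were higher and 9.92% were at least 2-fold higher. *Il12rb1* was the only member that was lower there. The median log2 ratio in that pair, on the scale of log2(FPKM + 1), was 0.71 for the 9 genes and 0.07 for those 11071 genes. Counts for the lists below are to be read beside the shares of all genes given here, and no list was tested against other genes.

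**Figure D1:**
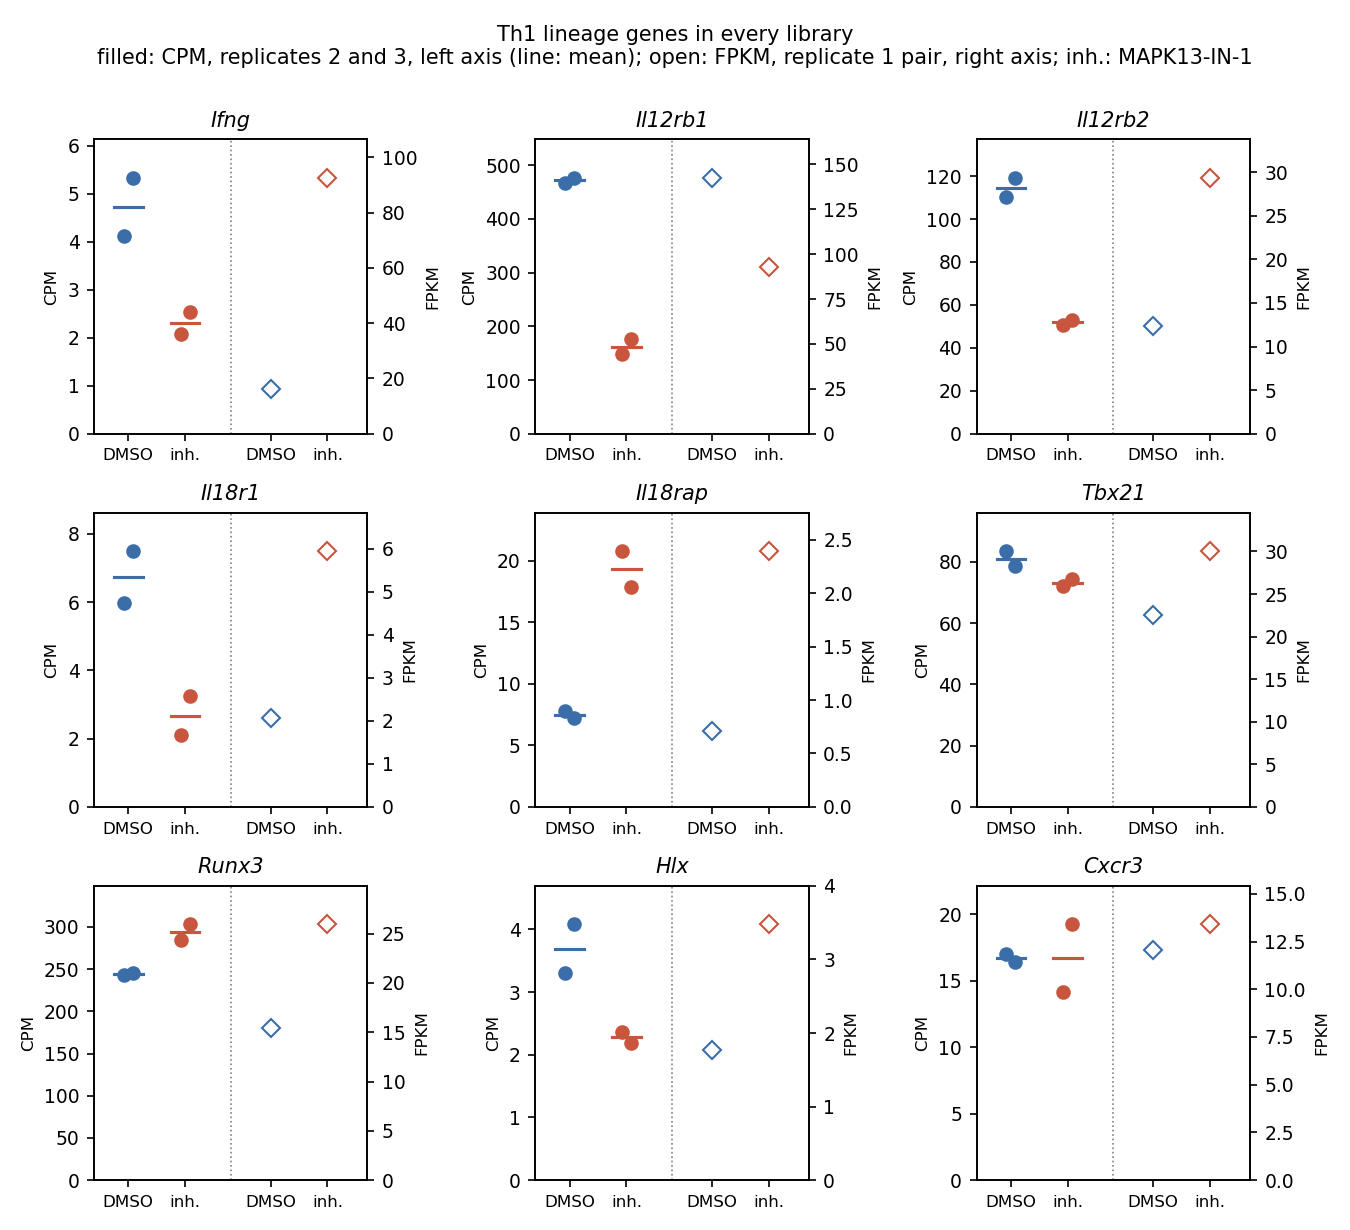
Level of each Th1 lineage gene in every library, where filled points are the CPM of replicates 2 and 3 on the left axis with their mean as a line, open diamonds are the FPKM of the replicate 1 pair on the right axis, and all axes are linear and start at 0. *Il12rb1* is lower with the inhibitor (inh., MAPK13-IN-1) on both sides of each panel's dotted line, *Ifng* is lower on the left and higher on the right.

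*Ifng* (chr10:118441046-118445892, plus strand, GRCm38) encodes IFN-γ itself, the cytokine that defines Th1 cells. It stood at 4.11 and 5.33 CPM in the DMSO libraries and at 2.09 and 2.54 CPM in the MAPK13-IN-1 libraries, from 106, 145, 74 and 86 counts. Both DMSO libraries were above both MAPK13-IN-1 libraries. The difference was 2.05-fold (log2 fold change −1.03, SE 0.22, Benjamini-Hochberg adjusted p = 0.00188, edgeR). *Ifng* went the other way in the replicate 1 pair, from 16.4 FPKM (DMSO) to 92.6 FPKM (MAPK13-IN-1), 5.66-fold higher. Its exons share 336 of 1295 bases with Gm49751, an annotated gene on the same strand that the count table does not list under this symbol, so reads from the shared bases cannot be told apart.

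*Il12rb1* (chr8:70808449-70821424, plus strand) encodes the β1 subunit that the IL-12 and IL-23 receptors share. Its level was 467 and 477 CPM with DMSO and 149 and 176 CPM with MAPK13-IN-1. The groups were far apart compared with the spread inside them, with means of 472 ± 6.86 and 162 ± 19.0 CPM (SD, n = 2 each). *Il12rb1* was 2.91-fold lower (log2 fold change −1.54, SE 0.07, Benjamini-Hochberg adjusted p = 1.10e-07, edgeR). It also fell in the replicate 1 pair, from 143 to 93.1 FPKM, which is 1.53-fold lower, so all 3 MAPK13-IN-1 libraries lay below the DMSO libraries of their own batch.

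*Il12rb2* (chr6:67291318-67376188, minus strand) encodes the β2 subunit, which binds Stat4 and is restricted to cells that can respond to IL-12. Its level was 110 and 119 CPM with DMSO and 50.9 and 53.1 CPM with MAPK13-IN-1, with no overlap between the groups. This was a 2.21-fold fall (log2 fold change −1.14, SE 0.07, Benjamini-Hochberg adjusted p = 3.88e-07, edgeR). The replicate 1 pair showed *Il12rb2* 2.37-fold higher instead, at 12.4 FPKM (DMSO) and 29.4 FPKM (MAPK13-IN-1). The 3794 exon bases of *Il12rb2* include 1519 that lie in exons of *Serbp1*, which is transcribed from the opposite strand. *Serbp1*, named here for this overlap and not by its values, was more abundant, at 493 ± 0.844 CPM with DMSO and 408 ± 10.8 CPM with MAPK13-IN-1 (SD, n = 2 each), and was also called lower (log2 fold change −0.27, SE 0.05). Whether the authors' counting used strand is not given in the sources used here, so the level of *Il12rb2* is uncertain to the extent that reads of *Serbp1* were counted for it.

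The genes of the IL-18 receptor moved in opposite directions. *Il18r1* (chr1:40465552-40500854, plus strand) encodes the chain that binds IL-18, and stood at 5.97 and 7.50 CPM with DMSO and at 2.11 and 3.25 CPM with MAPK13-IN-1, from 154, 204, 75 and 110 counts. *Il18rap* (chr1:40515362-40551705, plus strand) encodes the accessory chain needed for signaling, and stood at 7.79 and 7.21 CPM with DMSO and at 20.8 and 17.9 CPM with MAPK13-IN-1. For neither gene did the groups overlap, the DMSO libraries being the higher for *Il18r1* and the lower for *Il18rap*. *Il18r1* was 2.52-fold lower (log2 fold change −1.33, SE 0.23, Benjamini-Hochberg adjusted p = 0.000454, edgeR). *Il18rap* was 2.58-fold higher (log2 fold change 1.37, SE 0.13, Benjamini-Hochberg adjusted p = 6.46e-06, edgeR). Both chains were higher with MAPK13-IN-1 in the replicate 1 pair, *Il18r1* at 2.06 against 5.95 FPKM and *Il18rap* at 0.714 against 2.39 FPKM.

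*Tbx21* (chr11:97098071-97115331, minus strand) encodes T-bet, the factor that directs Th1 differentiation. Its level was 83.6 and 78.6 CPM with DMSO and 72.0 and 74.5 CPM with MAPK13-IN-1. The MAPK13-IN-1 libraries were below the DMSO libraries, but by little, and the gene did not pass the test (log2 fold change −0.15, SE 0.07, Benjamini-Hochberg adjusted p = 0.0761, edgeR). Without MAPK13-IN-1 replicate 3, where 1 inhibitor library remains and the spread comes from the DMSO libraries alone, its adjusted p fell under the threshold (log2 fold change −0.18, Benjamini-Hochberg adjusted p = 0.00915, edgeR), and over all alternatives its adjusted p ranged from 0.00915 to 0.798. *Tbx21* was 1.34-fold higher with MAPK13-IN-1 in the replicate 1 pair, at 22.5 FPKM (DMSO) and 30.1 FPKM (MAPK13-IN-1).

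*Runx3* (chr4:135120652-135177990, plus strand) encodes a Runt-domain factor that acts with T-bet at *Ifng* and represses *Il4*. Its level was 243 and 245 CPM with DMSO and 284 and 303 CPM with MAPK13-IN-1, the inhibitor libraries being the higher. The rise was 1.20-fold (log2 fold change 0.27, SE 0.06, Benjamini-Hochberg adjusted p = 0.00165, edgeR). Its FPKM in the replicate 1 pair rose as well, from 15.4 (DMSO) to 26.0 (MAPK13-IN-1). *Hlx* (chr1:184727140-184732619, minus strand) encodes a homeobox factor induced by T-bet that acts with it on *Ifng*. It was expressed at a low level, 3.30 and 4.08 CPM with DMSO and 2.37 and 2.18 CPM with MAPK13-IN-1, from 85, 111, 84 and 74 counts. The groups did not overlap, and *Hlx* was 1.62-fold lower (log2 fold change −0.70, SE 0.21, Benjamini-Hochberg adjusted p = 0.0152, edgeR). This call was lost without DMSO replicate 3, with the spread then from the MAPK13-IN-1 libraries alone (log2 fold change −0.54, Benjamini-Hochberg adjusted p = 0.143, edgeR) and with DESeq2 (adjusted p = 0.132 with Benjamini-Hochberg adjustment), within a range of 0.00669 to 0.143 over all alternatives. *Hlx* was higher with MAPK13-IN-1 in the replicate 1 pair, at 1.77 FPKM (DMSO) and 3.48 FPKM (MAPK13-IN-1).

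*Cxcr3* (chrX:101731535-101734269, minus strand) encodes the receptor by which Th1 cells follow the IFN-γ-induced chemokines Cxcl9 and Cxcl10. Its level was 17.0 and 16.4 CPM with DMSO and 14.2 and 19.2 CPM with MAPK13-IN-1. The DMSO libraries lay between the MAPK13-IN-1 libraries, and no difference was detected (log2 fold change 0.00, SE 0.14, Benjamini-Hochberg adjusted p = 0.999, edgeR). The replicate 1 pair gave 12.1 FPKM with DMSO and 13.4 FPKM with MAPK13-IN-1.

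Set side by side, the batches gave opposite signs for 5 of the 9 genes, namely *Ifng*, *Tbx21*, *Il12rb2*, *Il18r1* and *Hlx*, of which *Tbx21* was not called and had a log2 fold change of −0.02 with library totals. The signs were the same for *Il12rb1*, *Il18rap* and *Runx3*, and *Cxcr3*, at 0.00 in the count table, had no direction there to compare. Among the 10976 genes tested in the count table that also had a mean of at least 1 FPKM in the replicate 1 pair, 6686 had the same sign. The batches differed in library chemistry, in the unit deposited and in the level of B cell markers beside CD4 T cell markers and in the direction of the CD8 T cell markers. The labels of the replicate 1 pair give no dose of the inhibitor and no time for its addition. With 1 library per group in that pair, the difference between the batches was not tested, and its sources cannot be told apart.

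**Figure D2:**
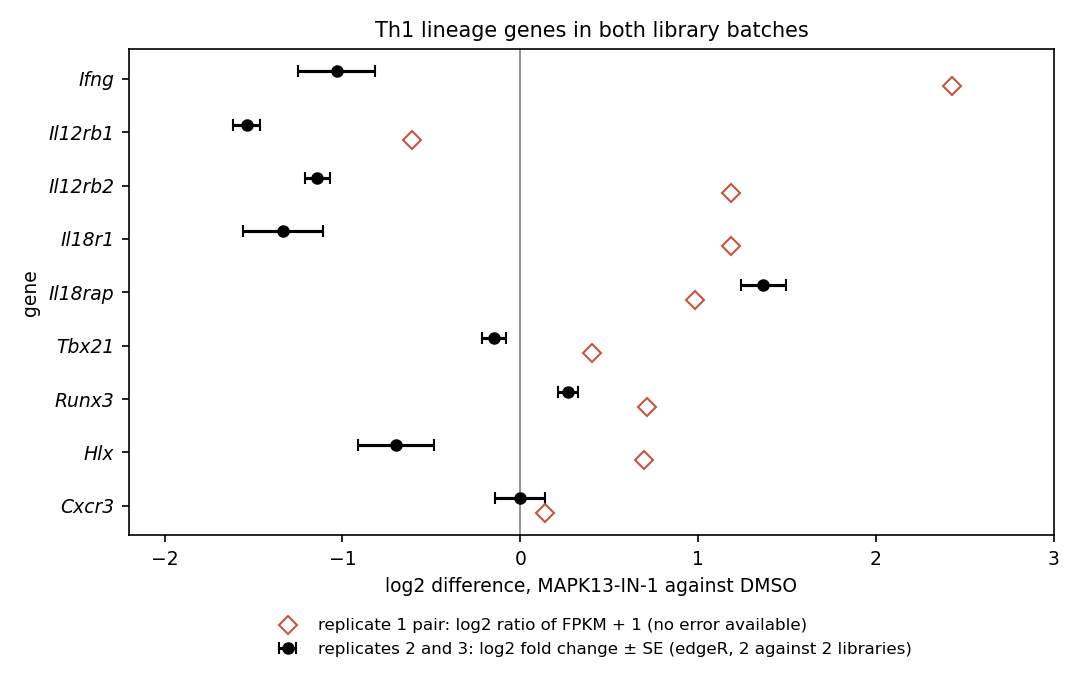
Difference between MAPK13-IN-1 and DMSO for each Th1 lineage gene on a log2 scale, where black points are log2 fold changes from replicates 2 and 3 with their SE (edgeR, 2 libraries against 2), and open diamonds are log2 ratios of FPKM + 1 from the replicate 1 pair, which has no error. *Ifng* lies at −1.03 and 2.43, *Il12rb1* is below 0 in both, and *Il18rap* and *Runx3* are above 0 in both.

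Levels of the 9 genes were compared with each other per kilobase of exon. With DMSO the order was *Il12rb1* (115 CPM per kb), *Runx3* (48.8), *Tbx21* (32.6), *Il12rb2* (30.2), *Cxcr3* (9.64), *Ifng* (3.65), *Hlx* (1.62), *Il18r1* (1.40) and *Il18rap* (1.11 CPM per kb). The library values of *Hlx* and *Il18r1* overlapped in this order, whereas no other neighbours did. With MAPK13-IN-1 *Runx3* came first (58.7 CPM per kb), ahead of *Il12rb1* (39.6 CPM per kb), and *Il18rap* moved from last to a place above *Ifng* (2.86 against 1.79 CPM per kb). The other members kept their order relative to each other, and no neighbours overlapped. FPKM, which also accounts for length, put *Il12rb1* first with DMSO in the replicate 1 pair (143 FPKM), ahead of *Tbx21* (22.5 FPKM) and *Ifng* (16.4 FPKM). With MAPK13-IN-1 the FPKM of *Ifng* (92.6) came next to that of *Il12rb1* (93.1).

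The genes with the most similar profiles were sought over the 4 libraries of the count table, as the smallest Euclidean distance between log2 CPM values centred on each gene's mean, among 15850 genes. For *Ifng* they were *4833417C18Rik* (distance 0.052), *Gtdc1* (0.053) and *Mapt* (0.058). For *Tbx21* they were *Csnk1g3* (distance 0.012), *Habp4* (0.014) and *Hinfp* (0.022). A distance over 4 libraries mostly reflects the difference between the groups. Of the neighbours of *Ifng*, *4833417C18Rik* and *Gtdc1* fell in the replicate 1 pair, from 1.02 to 0.416 FPKM and from 6.14 to 2.98 FPKM, and *Mapt*, near 0 there, had 0.0451 FPKM with DMSO and 0.0977 FPKM with MAPK13-IN-1. Among those of *Tbx21*, *Csnk1g3* was higher in that pair (11.1 against 11.8 FPKM), and *Habp4* (4.86 against 4.00 FPKM) and *Hinfp* (7.52 against 7.17 FPKM) were lower.

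The genes of IL-12 and its signaling were called in both directions. Of the 4 tested in a list of 5, 2 were lower and 2 were higher. *Jak2* and *Tyk2*, the kinases bound to the receptor, were lower (log2 fold changes −0.77, SE 0.05, and −0.65, SE 0.10), whereas in the replicate 1 pair *Jak2* had 134 against 133 FPKM and *Tyk2* rose from 19.0 to 35.1 FPKM. *Stat4*, the factor they activate, was higher, at 38.6 ± 0.918 CPM with DMSO and 64.5 ± 1.01 CPM with MAPK13-IN-1 (SD, n = 2 each; log2 fold change 0.74, SE 0.07), and it was higher in the replicate 1 pair too, at 10.5 against 37.8 FPKM. *Il12a*, which encodes the α chain of IL-12 itself, was low and higher with MAPK13-IN-1 (1.95 ± 0.0465 against 5.13 ± 0.199 CPM, SD, n = 2 each), and *Il12b* did not pass the filter. *Il23a*, the IL-23 subunit gene whose receptor shares *Il12rb1*, was lower in both batches, at 30.5 ± 2.67 against 1.43 ± 0.475 CPM (SD, n = 2 each) and at 10.9 against 3.86 FPKM. *Il23r*, for the other chain of that receptor, went the other way at a low level, with 4 and 3 counts (DMSO) and 18 and 16 counts (MAPK13-IN-1), and 0.199 against 1.75 FPKM. In a list of 7 genes of IL-18 signaling, which holds the cytokine, its soluble binding protein and the adaptor cascade, 2 were lower and 2 were higher, with a median log2 fold change of −0.06. The kinase gene *Irak1*, of that cascade, had the largest change among those lower (log2 fold change −0.97, SE 0.07).

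In the p38 MAP kinase route to *Ifng*, genes were called in both directions. Of its 9 genes 5 were higher and 2 were lower, beside 31.5% and 32.3% of all genes tested. The median log2 fold change of the 9 genes was 0.43, whereas 4 of the 9 were higher and 5 lower in the replicate 1 pair. *Gadd45b* and *Gadd45g*, whose products activate this route after IL-12 and IL-18, were at 75.7 ± 0.250 and 45.8 ± 1.08 CPM with DMSO and at 230 ± 21.9 and 96.0 ± 1.74 CPM with MAPK13-IN-1 (SD, n = 2 each). The upstream kinase genes *Map2k3* and *Map2k6* were also higher (log2 fold changes 0.65, SE 0.06, and 2.15, SE 0.08), as was *Mapk14*, which encodes p38α (0.43, SE 0.06). In the replicate 1 pair *Gadd45b* (30.4 against 147 FPKM), *Gadd45g* (21.2 against 53.6 FPKM) and *Map2k3* (41.0 against 59.2 FPKM) were higher with MAPK13-IN-1 too. *Map2k6* and *Mapk14* were lower in that pair, where *Map2k6* had 2.90 FPKM with DMSO and 1.25 FPKM with MAPK13-IN-1. The lower genes were *Mapk11* (log2 fold change −1.30, SE 0.12) and *Mapk13*, which encodes the kinase that the inhibitor is directed at. *Mapk13* had 79 and 74 counts with DMSO and 21 and 51 counts with MAPK13-IN-1. Its log2 fold change of −1.47 (SE 0.36) was −0.94 without MAPK13-IN-1 replicate 2 and −2.29 without MAPK13-IN-1 replicate 3, and in the replicate 1 pair it was higher, at 0.191 against 3.28 FPKM.

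The receptor and target genes of IFN-γ gave no common direction. Of the 10 tested, 1 was lower, 4 were higher and 5 were not called, with a median log2 fold change of 0.07. *Socs1*, a feedback inhibitor of the pathway, was the lower gene (97.8 ± 7.26 CPM with DMSO and 37.5 ± 3.19 CPM with MAPK13-IN-1, SD, n = 2 each). The kinase gene *Jak1*, which signals from the IFN-γ receptor, was among the higher genes (log2 fold change 0.59, SE 0.06). Of the ligands of Cxcr3, *Cxcl9* had 0 and 2 counts with DMSO and 12 and 21 counts with MAPK13-IN-1, too few for a fold change to be given, and *Cxcl10* was not called, at 19.5 ± 0.252 against 19.3 ± 0.407 CPM (SD, n = 2 each). In the replicate 1 pair *Cxcl10* had 2.72 FPKM with DMSO and 19.5 FPKM with MAPK13-IN-1.

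Among 8 partners of T-bet and Runx3, 3 were lower, 1 was higher and 4 were not called, with a median log2 fold change of −0.15. The higher gene was *Id2* (log2 fold change 0.42, SE 0.06). *Eomes*, the T-box factor related to T-bet, was not called, at 1.82 ± 0.545 CPM with DMSO and 1.34 ± 0.227 CPM with MAPK13-IN-1 (SD, n = 2 each), with log2 fold changes of −0.73 to −0.10 when each library was left out, and rose from 0.554 to 4.23 FPKM in the replicate 1 pair. In a list of 6 regulators that oppose or balance the Th1 fate, 4 were lower and 1 was higher, with a median of −0.91. The Th2 factor gene *Gata3* and the factor gene *Maf* were lower (log2 fold changes −1.09, SE 0.08, and −2.28, SE 0.10), as was *Zbtb7b*, which encodes ThPOK (−0.74, SE 0.07). *Tcf7*, which encodes Tcf1, was the higher gene (0.29, SE 0.08, and 0.15 without MAPK13-IN-1 replicate 3).

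Other effector and homing genes of Th1 cells had the same sign in both batches for 5 of the 14 tested. Of these 14, 7 were lower, 1 was higher and 6 were not called in the count table, with a median log2 fold change of −0.88, and in the replicate 1 pair 12 were higher, 11 of them at least 2-fold. *Lta*, which encodes lymphotoxin α, was lower in both, at 459 ± 10.9 against 73.3 ± 5.82 CPM (SD, n = 2 each) and at 238 against 202 FPKM. *Il2*, the T cell growth factor gene, fell in the count table (51.5 ± 7.40 to 14.9 ± 4.26 CPM, SD, n = 2 each) and stood at 6.04 against 71.1 FPKM in the replicate 1 pair. The same pattern was seen for the chemokine gene *Ccl4* (28.8 ± 1.37 against 4.47 ± 1.02 CPM, and 21.9 against 118 FPKM) and for the cytotoxic granule gene *Nkg7* (22.1 ± 0.903 against 3.55 ± 0.870 CPM, and 13.0 against 111 FPKM). *Ccl5* was higher in both batches, at 9.41 ± 0.781 against 34.8 ± 4.62 CPM (SD, n = 2 each) and at 13.3 against 246 FPKM. *Gzmb* and *Ly6c2* were also lower in the count table (log2 fold changes −0.97, SE 0.13, and −1.34, SE 0.15), and *Ccl3* was not called (−0.20, SE 0.14, and −0.38 to −0.02 with each library left out). In the replicate 1 pair *Gzmb* rose from 36.2 to 104 FPKM and *Ccl3* from 24.0 to 213 FPKM, and *Ly6c2* fell from 4.88 to 1.89 FPKM.

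The lists of the sister lineages were described for comparison. Of 9 Th2 lineage genes 8 were lower and 0 were higher in the count table, with a median log2 fold change of −2.28 against −0.70 for the 9 Th1 lineage genes. *Il13* fell from 30.2 ± 2.44 to 1.23 ± 0.305 CPM and *Il4* from 8.86 ± 0.627 to 0.332 ± 0.0313 CPM (SD, n = 2 each), and in the replicate 1 pair *Il13* rose from 16.5 to 39.9 FPKM and *Il4* fell from 28.9 to 13.1 FPKM. Of 9 Th17 lineage genes 4 were lower and 3 were higher, with a median of 0.00. In the replicate 1 pair 5 of 9 Th2 genes and 7 of 7 Th17 genes with a mean of at least 1 FPKM were higher with MAPK13-IN-1. Beside them stood 8 of 9 Th1 genes and 55.6% of the 11071 genes with such a mean. No test compared the lists.

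*Il18r1* and *Il18rap* lie next to each other in the IL-1 receptor cluster of chromosome 1, where 6 receptor genes are transcribed in the same direction. *Il1rl1*, which encodes the IL-33 receptor and marks Th2 cells, ends 133 bp before *Il18r1* begins, and 14507 bp separate *Il18r1* from *Il18rap* (RefSeq, GRCm38.p6). Neighbours along the cluster differed in direction. *Il1r2*, a decoy receptor gene, was higher (28.4 ± 0.0261 against 74.0 ± 3.32 CPM, SD, n = 2 each), *Il1r1* and *Il1rl2* were not called, *Il1rl1* was lower (9.09 ± 0.299 against 1.03 ± 0.211 CPM, SD, n = 2 each), *Il18r1* was lower and *Il18rap* was higher. All 6 genes of the cluster were higher with MAPK13-IN-1 in the replicate 1 pair.

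**Figure D3:**
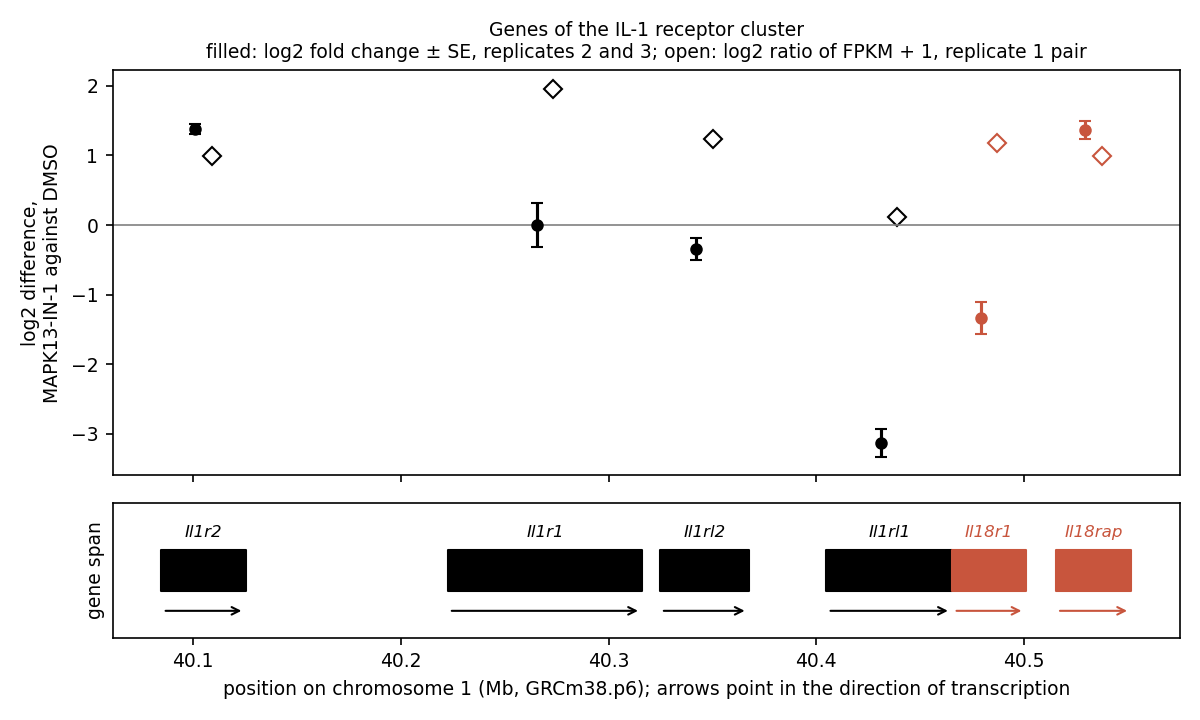
Genes of the IL-1 receptor cluster on chromosome 1 (RefSeq, GRCm38.p6), drawn to scale in the lower panel with arrows in the direction of transcription, below the log2 fold change ± SE from replicates 2 and 3 (filled) and the log2 ratio of FPKM + 1 of the replicate 1 pair (open) for each gene, with the members in red. *Il18r1* lies at −1.33 and *Il18rap* at 1.37 in replicates 2 and 3, and all open diamonds lie above 0.

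Promoter sequence was available for 8 of the 9 genes, in 11 windows of 250 bases before to 50 after an annotated start (RefSeq, GRCm38.p6). The entry of *Il12rb1* is the missing one. The windows were searched on both strands for the letters of 5 motifs. The STAT dimer motif TTCNNNGAA, which Stat4 can bind, occurred in windows of *Ifng*, *Il12rb2* and *Il18r1*, and in 8.30% of the 32851 promoters of the table. The Runx core TGTGGT occurred in windows of *Il18r1*, *Il18rap*, *Runx3* and *Cxcr3* (16.8% of all promoters), and the Tcf1 core CTTTGA in that of *Il18rap* (16.0% of all promoters). The T-box core GGTGTGA (3.98% of all promoters) and the AP-1 motif TGANTCA (7.81% of all promoters) were not in these windows. A match is a description of the letters and not a bound site, and a missing match says only that the letters are not in the window.

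The windows with a STAT dimer motif are printed because they belong to the cytokine gene and to receptor genes for IL-12 and IL-18. *Ifng*, *Il12rb2* and *Il18r1* were lower in the count table and higher in the replicate 1 pair, as were *Hlx* and (without a call) *Tbx21*, whose windows held no STAT dimer motif. The window of *Il18rap* is printed beside them because it is the neighbor of *Il18r1* that rose. Capitals mark the STAT dimer motif in the sequences of *Ifng*, *Il12rb2* and *Il18r1*, and the Tcf1 core and the Runx core, both read on the opposite strand, in that of *Il18rap*. Windows are at chr10:118440796-118441095 (plus strand), chr6:67376139-67376438 (minus strand), chr1:40465756-40466055 (plus strand) and chr1:40515112-40515411 (plus strand), in the same order, each written 5′ to 3′ on the strand of its gene. The *Il18r1* window is the most downstream of the 3 windows of that gene.
Ifng: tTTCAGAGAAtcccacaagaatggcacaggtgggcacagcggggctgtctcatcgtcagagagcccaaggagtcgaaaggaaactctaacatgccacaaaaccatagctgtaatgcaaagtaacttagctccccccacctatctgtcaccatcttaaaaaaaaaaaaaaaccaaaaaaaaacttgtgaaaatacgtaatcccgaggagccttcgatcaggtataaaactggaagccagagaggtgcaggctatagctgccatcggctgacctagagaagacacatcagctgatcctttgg
Il12rb2: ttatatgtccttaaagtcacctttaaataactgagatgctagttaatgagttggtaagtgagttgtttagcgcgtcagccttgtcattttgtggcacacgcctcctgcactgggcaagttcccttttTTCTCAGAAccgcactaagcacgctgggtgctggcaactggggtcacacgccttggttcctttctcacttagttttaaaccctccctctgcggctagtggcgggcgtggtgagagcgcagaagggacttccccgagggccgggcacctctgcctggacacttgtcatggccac
Il18r1: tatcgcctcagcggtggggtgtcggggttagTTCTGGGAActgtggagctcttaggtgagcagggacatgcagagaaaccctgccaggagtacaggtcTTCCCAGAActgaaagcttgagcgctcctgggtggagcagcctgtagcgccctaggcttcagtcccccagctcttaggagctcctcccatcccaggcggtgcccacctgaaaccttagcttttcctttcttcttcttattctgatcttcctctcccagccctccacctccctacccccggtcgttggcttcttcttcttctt
Il18rap: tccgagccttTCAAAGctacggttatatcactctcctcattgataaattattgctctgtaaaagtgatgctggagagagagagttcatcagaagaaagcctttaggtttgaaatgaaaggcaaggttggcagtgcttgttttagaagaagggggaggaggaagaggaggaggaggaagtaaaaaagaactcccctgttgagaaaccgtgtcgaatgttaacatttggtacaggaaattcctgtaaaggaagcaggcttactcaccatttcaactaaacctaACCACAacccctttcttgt
The motif begins at position −249 from the start of *Ifng*, at −123 from that of *Il12rb2*, and at −219 and −152 from the most downstream of the 3 starts of *Il18r1*, so that in this gene both sites lie after the first base given above. No binding of a factor to these windows was measured in the data described here.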

How the data were processed

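RNA-seq of splenic CD4+ T cells under DMSO or the inhibitor MAPK13-IN-1 was analysed, 3 libraries per group, grouped by sample title. For replicates 2 and 3 the authors deposited raw counts per gene. The submitters' processing notes name fastp 0.21.0, HISAT2 2.1.0, StringTie 2.1.5, DESeq2 1.30.1 and the build mm10. For the replicate 1 pair they name FastQC, HISAT2 and GRCm38, and the deposited values are read as FPKM, inferred from non-integer values that sum to 405150 and 390729. The annotation and the strand setting of the counting are not given in the sources used here.

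The analysis of the counts used R 4.3.3 and edgeR 4.0.16 (filterByExpr with a minimum count of 10 and a minimum total of 15, TMM scaling, quasi-likelihood test of 2 libraries against 2, Benjamini-Hochberg adjustment over 16269 genes). TMM factors were 0.960 and 0.955 for DMSO and 1.05 and 1.04 for MAPK13-IN-1. Between 19159 and 21575 genes had a count above 0 per library. In part of the genes, replicates differed beyond sampling noise (chi-square per gene, mean 3.00 and median 0.999 for DMSO, mean 9.70 and median 2.17 for MAPK13-IN-1), and the common biological coefficient of variation was 0.0659. The test was tried on simulated data. FPKM are printed as they are, and also as log2 ratios after adding 1, which understate the change of low genes.

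The genes named were the 9 members, genes of hand-written lists (IL-12 and IL-18 signaling, the IFN-γ receptor and targets, the p38 route, partners of T-bet and Runx3, opposing regulators, other Th1 effectors, the IL-1 receptor cluster, genes sharing *Il12rb1*, Th2 and Th17 genes, cell type markers) and the 3 nearest profiles of *Ifng* and *Tbx21*. Some genes counted in the lists are not reported here by name. The members and lists were chosen with earlier results of these data known. Exon lengths and coordinates came from GENCODE (GRCm38), promoters from RefSeq. Alternatives were RLE scaling, library totals, no filter, at least 10 counts in every library, DESeq2 1.42.0, a replicate block, each library left out, a log2 fold change over 1, a pseudocount of 0.1 and, chosen after seeing the data, limma-voom (limma 3.58.1).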

Additional observations from a re-analysis of the deposited data

Results flagged for a closer look

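Of the 9 Th1 lineage genes, 5 moved one way in every comparison of a MAPK13-IN-1 library with a DMSO library of replicates 2 and 3 (TMM-scaled CPM) and the other way in the replicate 1 pair. All 5 lay lower in replicates 2 and 3, *Tbx21* without a call (log2 fold change −0.15, and −0.02 with library totals) and *Hlx* with a call that was lost in 2 alternatives. The log2 ratios in the replicate 1 pair, on the scale of log2(FPKM + 1), were 2.43 for *Ifng*, 0.40 for *Tbx21*, 1.18 for *Il12rb2*, 1.18 for *Il18r1* and 0.69 for *Hlx*. Such a reversal was not particular to these genes. Of the 10976 genes tested that also had a mean of at least 1 FPKM in that pair, 6686 had the same sign in both batches. The libraries of the groups did not overlap in replicates 2 and 3 for 83% of all genes tested. The difference between the batches was not tested, since the replicate 1 pair has 1 library per group.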

How the results depend on the processing

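The direction of *Ifng*, *Il12rb1*, *Il12rb2*, *Il18r1*, *Il18rap* and *Runx3* and their calls held in every alternative fit. Of 99 values of the 9 Th1 lineage genes under 11 alternatives, 91 kept direction and side of the threshold. *Hlx* was not called with DESeq2 (log2 fold change −0.69, adjusted p = 0.132 with Benjamini-Hochberg adjustment). Leaving out each library in turn gave log2 fold changes of −0.85 to −0.54 for *Hlx*, −0.20 to −0.11 for *Tbx21* and −0.24 to 0.21 for *Cxcr3*. *Cxcr3* turned to −0.000542 without the filter, −0.0115 with the replicate block and −0.0188 with limma-voom, and *Cxcl10* to 0.11 with library totals, 0.0298 with at least 10 counts in every library, and between −0.0436 and 0.00646 with each library left out. The cause was not tested. Scaling by library totals moved the median of all genes by 0.125 (log2), to 0.137, and log2 fold changes under it are to be read against that shift. Of the genes called, 41.1% were lower and 58.9% higher under that scaling, against 50.6% and 49.4% with TMM.

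The share of genes called was 63.8% of 16269 genes, 45.3% of 23664 without the filter, 42.1% with DESeq2 (of 19650 genes with an adjusted p) and 23.4% with a log2 fold change over 1 required, by the stricter rule itself, which left 4 Th1 lineage genes called lower and 1 (*Il18rap*) higher. Leaving out libraries gave shares of 50.8% to 65.3%. Replicate numbers did not pair the libraries (correlation of same-numbered deviations −0.00641), and the replicate block gave a share of 65.4%, with 5 Th1 lineage genes lower and 2 higher. In the replicate 1 pair, a pseudocount of 0.1 gave a median of 0.94, and at least 1 FPKM in both libraries a median of 0.70. *Ifng*, *Il18r1* and *Hlx* rest on at most 204 counts per library.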
